A study of Gallus gallus with 16 samples.

Results

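The 7 genes described here encode steps of sterol, fatty acid and sphingolipid synthesis: INSIG1, GGPS1, FDFT1, SQLE, SCD5, ELOVL6 and SPTSSB. They were taken as the genes whose symbols the platform annotation gives to probes of a chicken cDNA array, and they account for 7 of 12532 genes tested and for 10 of 15609 probes. The 7 genes were chosen with earlier results of these data known. Their shares and sizes beside those of all genes are therefore descriptions and do not test the set. INSIG1, GGPS1, SCD5 and SPTSSB had 1 probe each, and FDFT1, SQLE and ELOVL6 had 2 each, so 4 genes rest on a single probe. All 7 genes had a value on all 16 arrays, so the requirement of at least 2 values in every group removed none of them.

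Each array carried RNA of pineal glands from male Rhode Island Red chicks aged 1 week, pooled from 5 to 6 glands, with 25 birds in each group. Birds of paradigm 1 received light for 2 h from ZT22 to ZT24 (late-night light, 4 pools) or stayed in the dark (4 pools), and glands were taken at ZT0, the time of lights-on. Birds of paradigm 2 received light for 2 h from ZT12 to ZT14 (early-night light, 2 pools) or stayed in the dark (2 pools), and glands were taken at ZT14. Birds of paradigm 3 were kept on a long day (2 pools) or served as controls (2 pools), also sampled at ZT14. The long day is 15 h light and 9 h dark in the study's design and 17 h light and 7 h dark in the sample titles, while the controls of every paradigm had 12 h of each. The reference RNA on every array was a mixture of all 16 pools.

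Each value is the deposited log ratio between a pool and the reference, taken as log2. The labels do not say which channel is the numerator, so "higher" and "lower" describe the deposited ratio, and with the opposite numerator every sign below turns together. A difference is the group named first minus its control, its error is the standard error (SE) of the limma fit across all 16 arrays, and the word called marks an adjusted p (Benjamini-Hochberg, over all 12532 genes) below 0.05. The fit assumes the same spread of a gene in every group, so an SE is not the spread of the compared pools alone. Whether the pools of compared groups overlap is given as a description only. Groups of few pools can separate without any difference between them, and the share of all genes that separate was not determined. Because the reference is made of the same glands, a ratio does not show an absolute level. For the same reason the tissue could not be checked against its markers, of which 5 of 29 pineal photoreceptor genes were measured. In pooled glands, fewer cells of a type and less RNA per cell cannot be told apart.

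Animal cells make cholesterol from acetyl-CoA through isoprenoid intermediates, and most enzymes of this route are switched on together by the transcription factor SREBP when sterols in the endoplasmic reticulum run low. INSIG1 closes the loop by holding back the activation of SREBP when sterols are plentiful, and in mammals its own gene is an SREBP target. Fatty acids are lengthened by elongases such as ELOVL6, given a double bond by desaturases such as SCD5, and joined to serine by serine palmitoyltransferase at the start of sphingolipid synthesis. The avian pineal gland contains its own circadian clock and its own photoreceptors that time its nightly output of melatonin.

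The arrays of paradigm 3 stood apart before any gene was considered. Their SD over probes was 0.820 to 1.08, against 0.391 to 0.510 in paradigm 2 and 0.248 to 0.546 in paradigm 1. Across probes they correlated at 0.507 to 0.600 with each other, long-day and dark arrays alike, and at -0.290 to -0.068 with the arrays of paradigm 1. The late-night light pool 4 and the ZT0 dark pools 3 and 4 were on arrays of a later number series than the other 13. All comparisons at ZT0 lie in paradigm 1 and all at ZT14 in paradigms 2 and 3, so time of day and paradigm cannot be told apart.

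**Figure D1:**
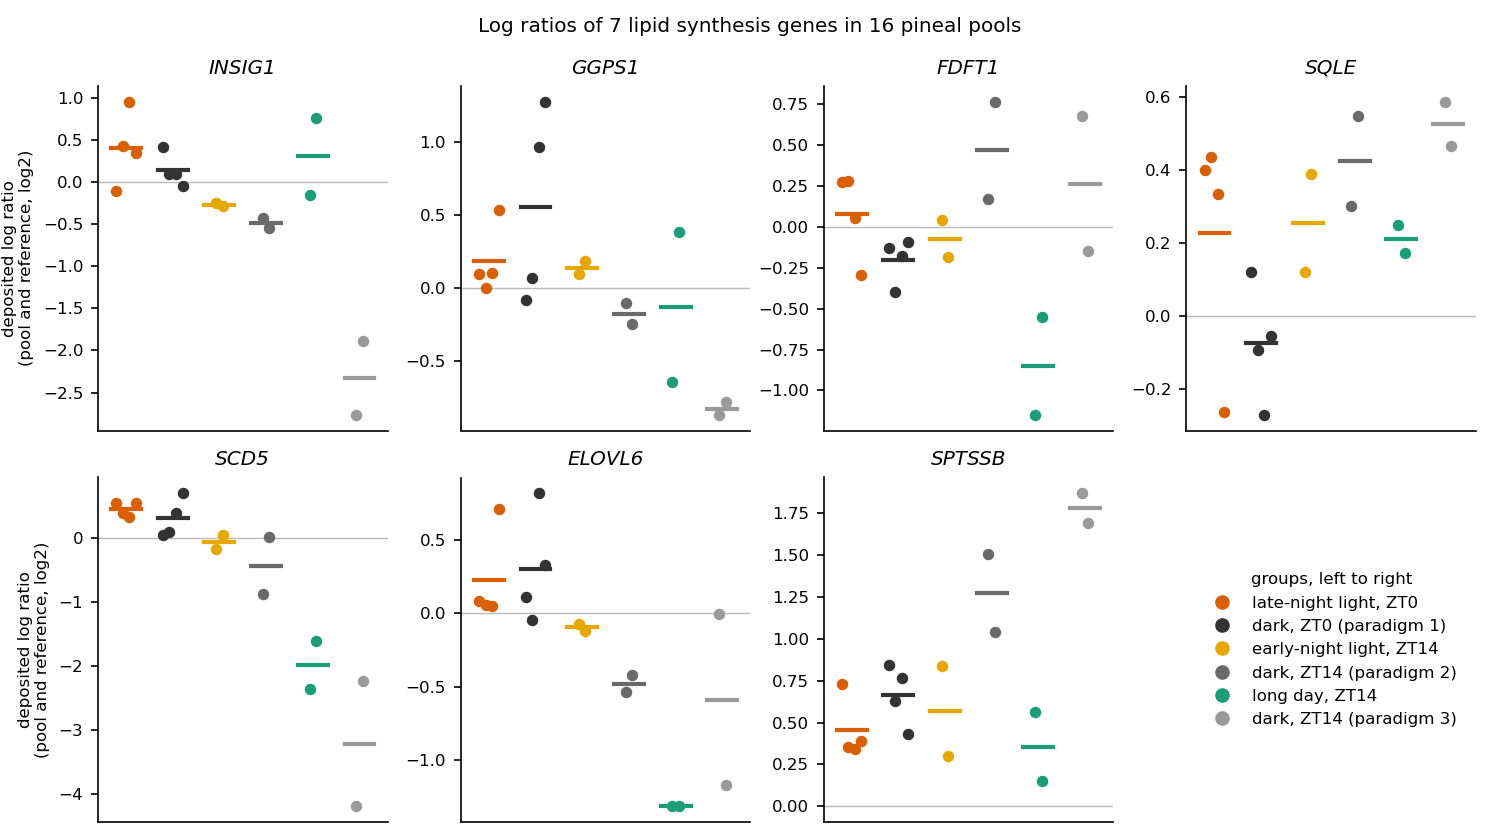
Deposited log ratio (log2) of each of the 7 genes in every pool. Points are pools, horizontal lines are group means, and the 6 groups run left to right as in the legend. INSIG1 has its lowest and SPTSSB its highest values in the dark pools of paradigm 3, and the 4 lowest SCD5 values are those of the 4 paradigm 3 pools.

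The long day separated INSIG1 and SPTSSB from their dark controls, in opposite directions. INSIG1 was higher in the long day by 2.63 ± 0.36 and SPTSSB was lower by 1.43 (SE 0.25). Of the 7 genes, these 2 were called in the long day, against 2.94% of all genes tested, and 4 of the 7 had an unadjusted p under 0.05, as 17.8% of all genes did. Neither late-night light nor early-night light gave a called difference for any of the 7 genes.

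INSIG1, the sterol sensor that restrains SREBP, had log ratios of -0.15 and 0.76 in the long-day pools, against -2.76 and -1.89 in the dark pools of paradigm 3. Both dark pools lay far below both long-day pools and below every other array. The difference of 2.63 ± 0.36 is a 6.19-fold higher ratio (limma, 2 pools each, adjusted p = 0.00367). Leaving out either long-day pool or either dark pool gave differences of 2.17 to 3.09, all called. Setting all arrays to the same SD over probes gave 1.43 with an adjusted p of 0.652, and quantile normalization gave 1.36 with an adjusted p of 0.998. The call was also lost with array weights (2.63, adjusted p = 0.223), with only the 4 arrays compared (adjusted p = 0.826) and against all 4 ZT14 dark pools (1.71, adjusted p = 0.160).

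In early-night light INSIG1 had -0.25 and -0.29, against -0.43 and -0.54 in the dark pools of paradigm 2. The light pools were both above the dark pools, by 0.22 ± 0.36, which is within the SE of the fit. That SE is shared by all groups, whose spreads differed. The SD of INSIG1 was 0.02 in early-night light and 0.08 in its dark pools, against 0.64 in the long day and 0.62 in its dark pools. In late-night light the 4 pools had -0.11, 0.43, 0.95 and 0.34, against 0.42, 0.09, 0.10 and -0.05 in the ZT0 dark pools, and the groups overlapped (difference 0.27 ± 0.26). The long-day difference exceeded the early-night difference by 2.41 ± 0.51, with an unadjusted p of 0.000391 and an adjusted p of 0.106 in limma, so the difference between the paradigms was not called.

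The group means of INSIG1 ran from 0.40 ± 0.43 in late-night light (SD, n = 4) through 0.30 ± 0.64 in the long day (n = 2) and 0.14 ± 0.20 in ZT0 darkness (n = 4) to -0.27 ± 0.02 in early-night light (n = 2), -0.49 ± 0.08 in the dark of paradigm 2 (n = 2) and -2.33 ± 0.62 in the dark of paradigm 3 (n = 2). The first 3 groups in this order overlapped, and each of the following groups lay below the one before it without overlap. The dark pools of paradigm 3 were lower than those of paradigm 2 by 1.84 (SE 0.36, adjusted p = 0.00417 in limma). Both are dark controls at ZT14, and 2 of the 7 genes were called between them, INSIG1 and SCD5, against 20.6% of all genes tested.

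GGPS1 makes geranylgeranyl diphosphate, the isoprenoid that anchors many small GTPases to membranes. In the long-day pools it had -0.65 and 0.38, against -0.87 and -0.79 in their dark controls. The long-day pools differed from each other more than the dark pools did, but both were higher (0.70 ± 0.42, adjusted p = 0.432 in limma). Early-night light gave 0.09 and 0.18, against -0.10 and -0.25 in its dark pools, again without overlap (0.31 ± 0.42). Late-night light gave 0.09, 0.00, 0.10 and 0.54, against -0.08, 0.07, 0.97 and 1.28 in ZT0 darkness. The high dark pools 3 and 4 and the highest light pool are the 3 arrays of the later number series. With all arrays the difference was -0.38 ± 0.30, and without those 3 arrays it was 0.07 ± 0.26.

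FDFT1, squalene synthase, takes the first step that is committed to sterols. Its gene mean was -1.15 and -0.55 in the long-day pools, against 0.68 and -0.15 in the dark pools. Both long-day pools lay below both dark pools, and the difference of -1.11 ± 0.31 narrowly missed the call (adjusted p = 0.0697 in limma). Without the dark pool 4 it was -1.53 with an adjusted p of 0.0118, without the long-day pool 2 it was -1.41 with an adjusted p of 0.0431, and without the dark pool 3 it was -0.70 with an adjusted p of 0.245. Early-night light had 0.04 and -0.19, against 0.17 and 0.77 in its dark pools, again lower without overlap (-0.54 ± 0.31). Late-night light had 0.27, 0.28, 0.05 and -0.30, against -0.13, -0.40, -0.18 and -0.09 in ZT0 darkness, where 3 of the 4 light pools were above all dark pools (0.28 ± 0.22). The light pool 4, on an array of the later number series, had 0.28 on probe C0004114_L21 and -0.87 on probe C0004128_I16. On the first probe all 4 light pools were above all dark pools (0.41 ± 0.20), and on the second the difference was 0.15 ± 0.29. The late-night difference exceeded the early-night difference by 0.82 ± 0.38 (unadjusted p = 0.0492, adjusted p = 1.000 in limma).

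SQLE, squalene epoxidase, carries out the next step and is held to be a control point of the sterol branch. The gene mean had 0.25 and 0.17 in the long day, against 0.59 and 0.47 in its dark controls, without overlap (-0.32 ± 0.24, adjusted p = 0.560 in limma). Early-night light had 0.12 and 0.39, against 0.30 and 0.55 (difference -0.17 ± 0.24). Late-night light had 0.40, 0.44, 0.33 and -0.26, against 0.12, -0.09, -0.27 and -0.06, with the lowest light pool on an array of the later number series (difference 0.30 ± 0.17, unadjusted p = 0.0943). As a gene mean SQLE varied least of the 7 genes, with 0.60 between its highest and lowest group means. Its range over the 16 arrays, 0.86, was wider than that of 14.5% of the genes tested. Its single probes varied more, from -0.67 to 0.94 on C0004112_B4 and from -0.34 to 0.91 on DT40subNB_14A5.

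SCD5 introduces a double bond into saturated acyl-CoA and in mammals is found mainly in brain. It had the widest spread of the 7 genes: its group means covered 3.67, and its range over the 16 arrays, 4.89, was wider than that of 98.4% of the genes tested. The long-day pools had -2.36 and -1.61, against -4.20 and -2.24 in the dark pools of paradigm 3. The groups overlapped, since the long-day pool 1 lay below the dark pool 4, and the difference of 1.23 ± 0.49 was not called (adjusted p = 0.197 in limma). Without the dark pool 4 it was 2.21, with an adjusted p of 0.00382, and without the dark pool 3 it was 0.26. Set against all 4 ZT14 dark pools it was -0.16, with an adjusted p of 0.967. All 4 arrays of paradigm 3 were below every array of the other paradigms.

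Outside paradigm 3, SCD5 had -0.17 and 0.04 in early-night light, against -0.88 and 0.01 in darkness (difference 0.37 ± 0.49). The ZT0 pools had 0.54, 0.39, 0.32 and 0.55 in late-night light, against 0.04, 0.09, 0.38 and 0.70 in darkness (0.15 ± 0.35). Light and dark pools overlapped in both paradigms. Between the dark groups at ZT14, paradigm 3 was lower than paradigm 2 by 2.78 (SE 0.49, adjusted p = 0.00211 in limma). With all arrays at the same SD, after quantile normalization or with only the 4 arrays compared, neither SCD5 nor INSIG1 was called between these dark groups (adjusted p = 0.125 to 0.586).

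ELOVL6 lengthens saturated and monounsaturated acyl chains. Its gene mean was -1.31 and -1.31 in the long day, against -0.01 and -1.17 in the dark pools, and 0.08, 0.06, 0.05 and 0.71 in late-night light, against 0.11, -0.04, 0.82 and 0.33 in ZT0 darkness. In early-night light it was -0.07 and -0.12, against -0.53 and -0.42 in darkness. The long-day difference was thus -0.73 ± 0.36 and the early-night difference 0.38 ± 0.36, without overlap in either, and neither was called in limma (adjusted p = 0.314 and adjusted p = 1.000). The dark pools of paradigm 3 lay far apart, and the long-day difference was -1.31 (adjusted p = 0.0324) without the dark pool 4 and -0.14 without the dark pool 3.

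The long-day difference of ELOVL6 was carried by 1 of its 2 probes. Probe C0004128_G21 had -2.68 and -2.63 in the long day, against -0.03 and -2.27 in the dark (-1.51 ± 0.52). Probe Pat_14e8 had 0.05 and 0.00, against 0.02 and -0.06 (0.05 ± 0.35), and was at 0.79, 0.78 and 0.82 on the 3 arrays of the later number series while lying between -0.19 and 0.23 on the other 13. The 2 probes correlated at 0.359 over the 16 arrays and at 0.537 over the 12 outside paradigm 3, as a description of values that share arrays and the reference. Those of FDFT1 correlated at 0.738, and at 0.509 outside paradigm 3, and the long-day difference was negative in both (-1.04 ± 0.28 and -1.18 ± 0.42). Those of SQLE correlated at 0.040, and at 0.281 outside paradigm 3. Its probe C0004112_B4 had a long-day difference of -0.61 ± 0.30, and its probe DT40subNB_14A5 one of -0.02 ± 0.24. In the long day the gene means of SQLE and ELOVL6 thus average probes with unequal differences.

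**Figure D2:**
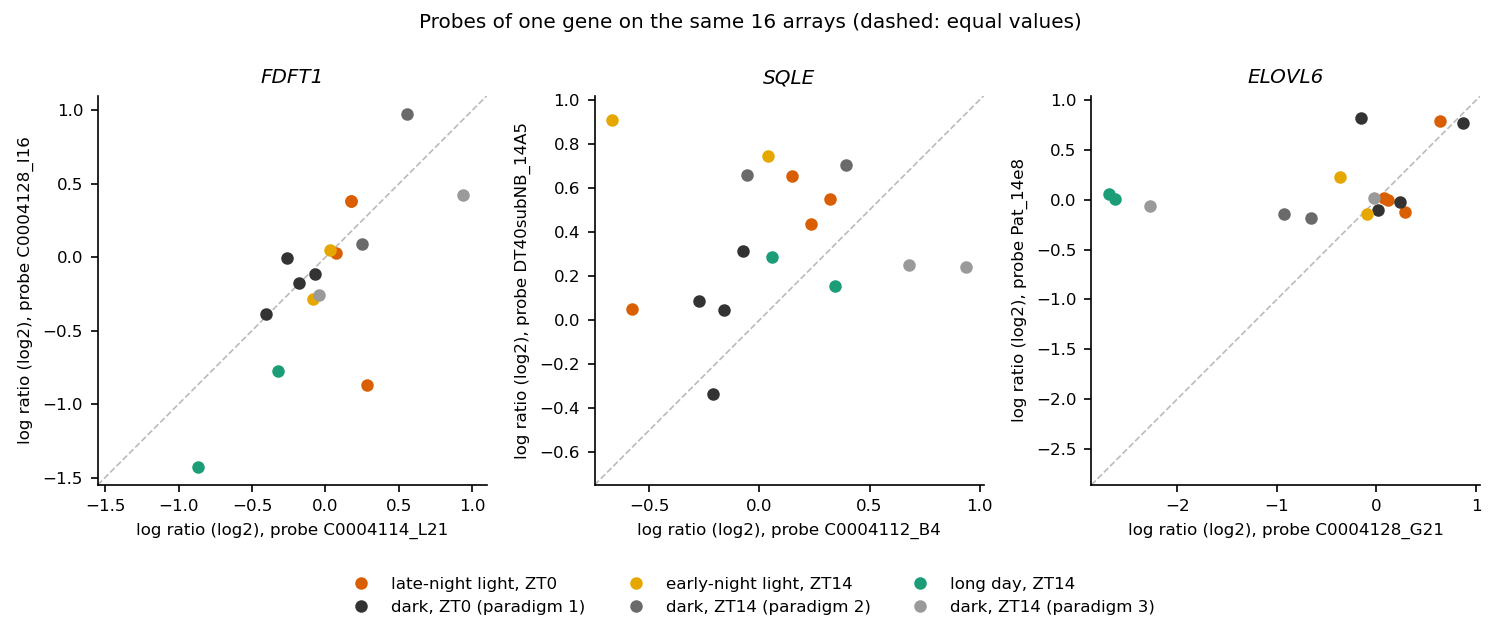
Log ratio (log2) of one probe against the other on the same 16 arrays for the 3 genes with 2 probes. Colours mark the groups and the dashed line marks equal values. The FDFT1 probes increase together, the SQLE probes do not, and 3 of the 4 paradigm 3 arrays separate the ELOVL6 probes by more than any other array does.

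SPTSSB is a small activating subunit of serine palmitoyltransferase that in mammals shifts the enzyme towards longer acyl chains. It had 0.56 and 0.15 in the long day, against 1.87 and 1.69 in the dark pools of paradigm 3. The dark pools had the highest values of all 16 arrays, and the long-day pools lay within or below the range of the ZT0 pools. The difference of -1.43 ± 0.25 is a 2.69-fold lower ratio (limma, 2 pools each, adjusted p = 0.00980). It was called without each of the 4 pools in turn, between -1.63 and -1.22. With all arrays at the same SD it was -0.71 (adjusted p = 1.000), after quantile normalization -0.70 (adjusted p = 1.000), and with a trended and robust prior the same difference had an adjusted p of 0.0524. With array weights the adjusted p was 0.451 and with only the 4 arrays compared it was 0.826.

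Early-night light gave SPTSSB 0.84 and 0.30, against 1.50 and 1.04 in its dark pools. Both light pools were below both dark pools, by 0.70 (SE 0.25). The unadjusted p of 0.0136 was the smallest among the 66 measured lipid genes in this comparison, but the adjusted p was 0.978 in limma. In late-night light the pools had 0.73, 0.36, 0.34 and 0.39, against 0.85, 0.63, 0.77 and 0.43 in ZT0 darkness, overlapping and differing by -0.21 ± 0.18. SPTSSB thus had a negative difference in all 3 light comparisons, of which the long day was called. The long-day difference was below the early-night difference by 0.72 (SE 0.35, unadjusted p = 0.0595, adjusted p = 0.495).

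The group means of SPTSSB ran from 1.78 ± 0.12 in the dark of paradigm 3 and 1.27 ± 0.33 in the dark of paradigm 2 (SD, n = 2 each) to 0.67 ± 0.18 in ZT0 darkness (n = 4), 0.57 ± 0.38 in early-night light (n = 2), 0.45 ± 0.18 in late-night light (n = 4) and 0.36 ± 0.29 in the long day (n = 2). Both ZT14 dark groups were above all other groups without overlap, and the last 4 groups overlapped with their neighbours. Taken over both paradigms, light at ZT14 was set against darkness at ZT14 with the mean of the 2 differences. SPTSSB was lower by 1.07 (SE 0.18, adjusted p = 0.0396) and INSIG1 higher by 1.42 ± 0.26 (adjusted p = 0.0396, both in limma), each without overlap between the 4 light and the 4 dark pools. They are 2 of the 7 genes, against 0.295% of all genes. For SPTSSB the call was lost without the early-night light pool 2 (adjusted p = 0.108), and for INSIG1 without any 1 of the 4 pools of paradigm 2 (adjusted p = 0.0525 to 0.133).

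**Figure D3:**
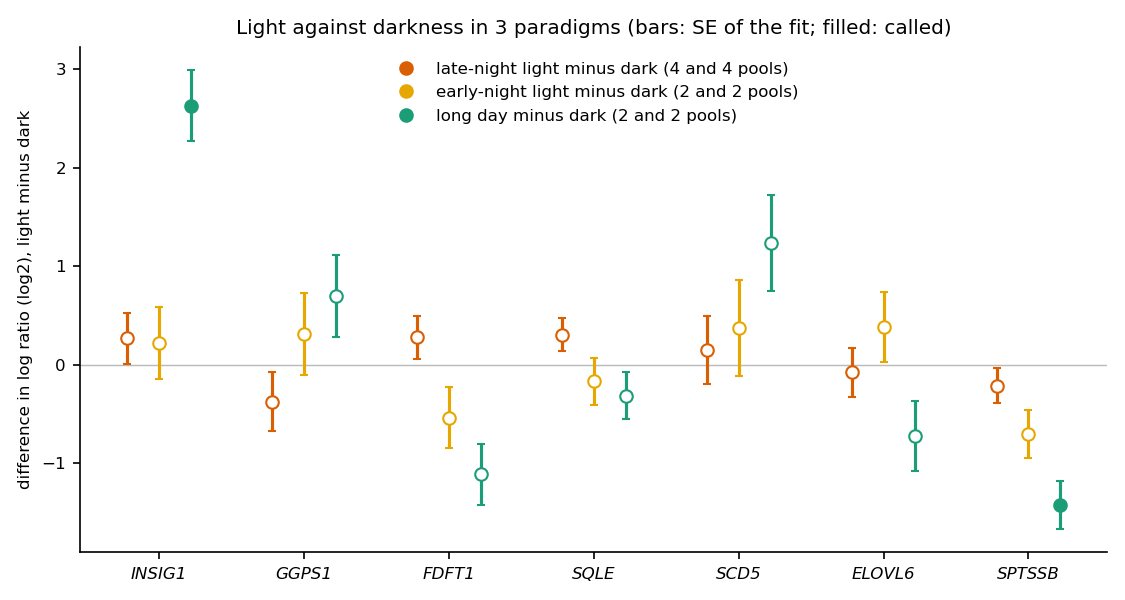
Difference in log ratio (log2) between light and dark pools for each gene in the 3 paradigms, with SE bars from the limma fit. Filled points are called at an adjusted p under 0.05. INSIG1 at 2.63 and SPTSSB at -1.43 in the long day are the filled points, and all differences after late-night and early-night light are open.

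Over all 7 genes, early-night light gave 0 called in limma, against 0.00798% of all genes, and 1 had an unadjusted p under 0.05, as 4.2% of all genes did. Late-night light gave 0 called, against 0% of all genes, and 0 had an unadjusted p under 0.05, while 4.21% of all genes did. The median absolute size of the 7 differences was 1.11 in the long day, 0.37 in early-night light and 0.27 in late-night light, beside 0.30, 0.18 and 0.14 over all genes tested.

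The light differences were also set against each other. Long-day minus early-night differences gave 0 of the 7 called in limma, against 0.0239% of all genes, with 2 at an unadjusted p under 0.05 (INSIG1 and ELOVL6), as 10.5% of all genes were. Late-night minus early-night differences gave 0 called, against 0.0399%, with FDFT1 at an unadjusted p under 0.05, as 4.12% of all genes were. A comparison added after the data were seen, the late-night difference minus the mean difference at ZT14, gave 0 called, against 0.0718%. In it INSIG1 had -1.16 ± 0.36, FDFT1 1.10 ± 0.31, SPTSSB 0.85 ± 0.25 and SQLE 0.54 ± 0.24, each with an unadjusted p under 0.05, as 8.39% of all genes had, and with adjusted p-values of 0.359 to 0.576.

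Time of day was compared in darkness, with the ZT0 pools of paradigm 1 against the mean of both ZT14 dark groups. Of the 7 genes 6 were called, against 19% of all genes tested. The 7 were chosen with earlier results of these data known, and of the 66 measured lipid genes 19.7% were called. SCD5 was higher at ZT0 by 2.13 ± 0.35 (adjusted p = 0.00187), INSIG1 by 1.54 ± 0.26 (adjusted p = 0.00202), GGPS1 by 1.06 ± 0.30 (adjusted p = 0.0246) and ELOVL6 by 0.84 ± 0.25 (adjusted p = 0.0345 in limma). SPTSSB was lower by 0.86 (SE 0.18, adjusted p = 0.00553) and SQLE by 0.55 (SE 0.17, adjusted p = 0.0358). FDFT1 had -0.57 ± 0.22, with an adjusted p of 0.0871. In a limma fit of single probes, the genes with 2 probes were split. ELOVL6 had 1.21 ± 0.37 on C0004128_G21 (adjusted p = 0.0383) and 0.46 ± 0.25 on Pat_14e8 (0.223). SQLE had -0.67 ± 0.22 on C0004112_B4 (0.0472) and -0.43 ± 0.17 on DT40subNB_14A5 (0.0902). FDFT1 had -0.65 ± 0.20 on C0004114_L21 (0.0368) and -0.48 ± 0.29 on C0004128_I16 (0.292). The 4 ZT0 pools did not overlap the 4 ZT14 pools for the called genes other than ELOVL6, but the share of all genes without such overlap was not determined.

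How many were called changed with the ZT14 pools used, and a comparison with 1 dark group also has 2 ZT14 pools instead of 4. Against the dark pools of paradigm 2 alone none of the 7 was called (adjusted p = 0.372 to 0.574 in limma), and 4 of all genes were. The differences were then 0.74 ± 0.42 for SCD5, 0.63 ± 0.31 for INSIG1, 0.73 ± 0.36 for GGPS1, 0.78 ± 0.31 for ELOVL6, -0.61 ± 0.21 for SPTSSB, -0.50 ± 0.21 for SQLE and -0.67 ± 0.27 for FDFT1. Every sign was the same as against both groups, but the sizes of SCD5 and INSIG1 were 3.52 ± 0.42 and 2.46 ± 0.31 against paradigm 3 alone. For the gene means of ELOVL6, SQLE and FDFT1 the 2 values lay close together, at 0.89 ± 0.31, -0.60 ± 0.21 and -0.46 ± 0.27 against paradigm 3. The probes of these genes were less alike between the dark groups. Paradigm 3 minus paradigm 2 was 0.64 ± 0.30 on SQLE probe C0004112_B4 and -0.43 ± 0.24 on DT40subNB_14A5. It was 0.05 ± 0.28 on FDFT1 probe C0004114_L21 and -0.45 ± 0.42 on C0004128_I16. For ELOVL6 it was -0.36 ± 0.52 on C0004128_G21 and 0.14 ± 0.35 on Pat_14e8, and no probe of these genes was called.

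Most of these time-of-day calls were also lost without the 3 arrays of the later number series. Those arrays include the ZT0 dark pools 3 and 4, so fewer ZT0 pools remain. Whether the lost calls come from the smaller number of pools was not tested. Without these 3 arrays, 1 of the 7 genes was called, INSIG1 at 1.66 ± 0.35 (adjusted p = 0.0326 in limma). The share of all genes called in that fit is not given here, so the loss of calls is not set against all genes. SCD5 had 1.89 ± 0.46 with an adjusted p of 0.0501, SPTSSB -0.79 ± 0.23 with 0.0853, and GGPS1 0.49 ± 0.24 with 0.293. ELOVL6 had 0.57 ± 0.26 with 0.264 and SQLE -0.46 ± 0.16 with 0.135. After quantile normalization the SPTSSB difference was 0.02 (adjusted p = 0.978), and with all arrays at the same SD it was -0.22 (adjusted p = 0.686), so neither its call nor, under quantile normalization, its direction held. The calls of INSIG1, SCD5 and SPTSSB held without each single pool in turn, while those of GGPS1, SQLE and ELOVL6 were not stable. GGPS1 lost its call without either of the ZT0 dark pools 3 and 4 or either dark pool of paradigm 2 (adjusted p up to 0.0783). SQLE lost it without any 1 of the ZT0 dark pools 2, 3 and 4, the paradigm 2 dark pool 2 or the paradigm 3 dark pool 3 (up to 0.114). ELOVL6 lost it without either of the ZT0 dark pools 3 and 4, either dark pool of paradigm 2 or the paradigm 3 dark pool 4 (up to 0.107). FDFT1 was called without the paradigm 3 dark pool 4 (-0.77, adjusted p = 0.0181).

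**Figure D4:**
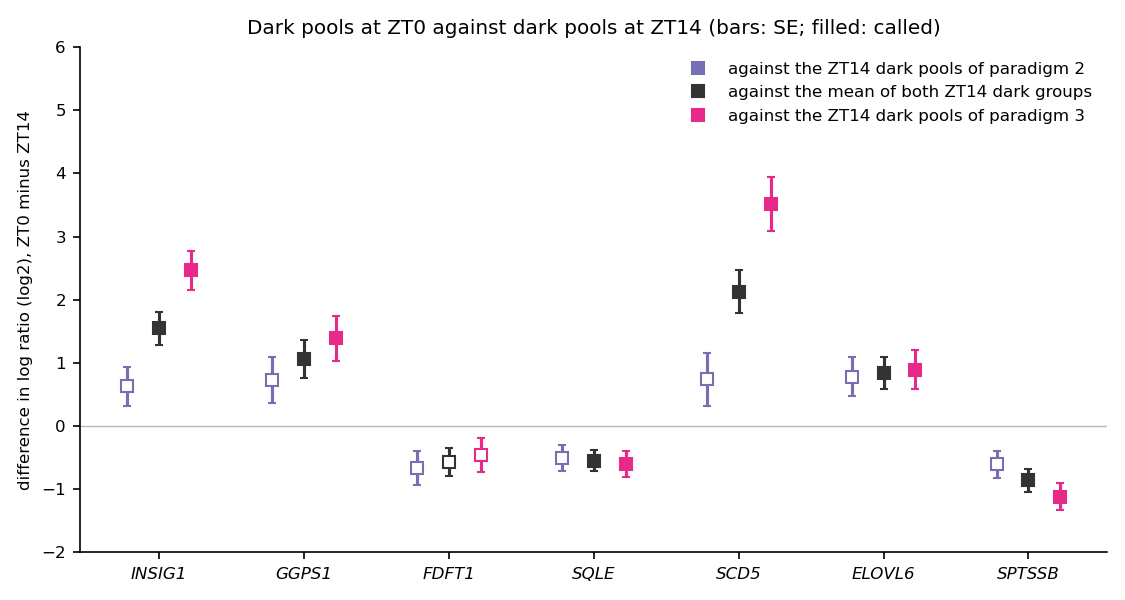
Difference in log ratio (log2) between the dark pools at ZT0 and dark pools at ZT14, for each gene, with SE bars. The ZT14 pools are those of paradigm 2, the mean of both dark groups, or those of paradigm 3, and filled squares are called. All 7 squares against paradigm 2 are open.

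The same comparison among light pools, late-night light at ZT0 against the mean of early-night light and the long day at ZT14, called 2 of the 7 genes, against 11.7% of all genes. SCD5 was higher at ZT0 by 1.47 ± 0.35 (adjusted p = 0.0184) and ELOVL6 by 0.93 ± 0.25 (adjusted p = 0.0326 in limma). INSIG1 had 0.39 ± 0.26 and SPTSSB -0.01 ± 0.18. Against early-night light alone neither was called, with 0.51 ± 0.42 for SCD5 and 0.32 ± 0.31 for ELOVL6 (adjusted p = 0.809 and 0.860). The SCD5 call was lost without the early-night light pool 1 (adjusted p = 0.0612), without the long-day pool 1 (adjusted p = 0.0508) and without the 3 later arrays (adjusted p = 0.0667). The ELOVL6 call was lost without any 1 of the 8 light pools (adjusted p = 0.0540 to 0.0909). It rested on probe C0004128_G21 (1.72 ± 0.37), while probe Pat_14e8 had 0.13 ± 0.25.

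Among themselves the 7 genes did not form a single pattern over the 16 arrays. The following values of Pearson's r are descriptions of arrays that share the reference and fall into 6 groups. INSIG1 and SPTSSB had r = -0.862, and -0.580 over the 12 arrays outside paradigm 3. INSIG1 had 0.733 with SCD5 and 0.606 with GGPS1, but 0.468 and 0.099 outside paradigm 3. The neighbouring enzymes FDFT1 and SQLE had 0.502, and 0.772 outside paradigm 3. GGPS1, at the branch point away from sterols, had -0.726 with SQLE, and -0.691 outside paradigm 3. The 12 arrays outside paradigm 3 include the 3 of the later number series. On those, GGPS1 had its highest values (0.54, 0.97 and 1.28) and SQLE had -0.26, -0.27 and -0.06. The values of r without these arrays were not determined.

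The other genes of lipid metabolism were taken from 4 lists holding 152 genes, of which 66 were measured, the 7 included. In the long day 2 were called higher and 3 lower, 7.58% of the 66 beside 2.94% of all genes. The median difference of the 66 genes was -0.03, beside -0.01 over all genes. Of 14 sterol and isoprenoid synthesis genes, 0 were called in limma, 2 had an unadjusted p under 0.05 and the median was -0.14. Of 16 genes of sterol sensing, uptake and export, INSIG1 was called higher and CYP46A1 lower. CYP46A1 is the hydroxylase that turns brain cholesterol into a form that can leave the tissue. It had -0.44 and -0.43 in the long day, against 0.28 and 1.14 in darkness (-1.14 ± 0.28, adjusted p = 0.0460).

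Of 22 genes of fatty acid synthesis, elongation and desaturation, DBI, which carries acyl-CoA in the cytosol, was called lower. Its pools had -2.03 and -0.95, against -0.43 and 0.64 in darkness (-1.60 ± 0.35, adjusted p = 0.0310 in limma). Of 14 sphingolipid genes, SPTLC2 was called higher and SPTSSB lower. SPTLC2, a catalytic subunit of the same serine palmitoyltransferase that SPTSSB belongs to, had -0.61 and 0.04, against -2.40 and -1.02 in darkness (1.43 ± 0.35, adjusted p = 0.0452). The dark pools of paradigm 3 had the highest SPTSSB and the lowest SPTLC2 ratios of all 16 arrays. These 3 further calls were lost with all arrays at the same SD and after quantile normalization. The call of CYP46A1 was also lost without either long-day pool or the dark pool 4 (adjusted p up to 0.138), that of DBI without the long-day pool 1 or the dark pool 4 (up to 0.126), and that of SPTLC2 without the long-day pool 2 or the dark pool 3 (up to 0.162).

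**Figure D5:**
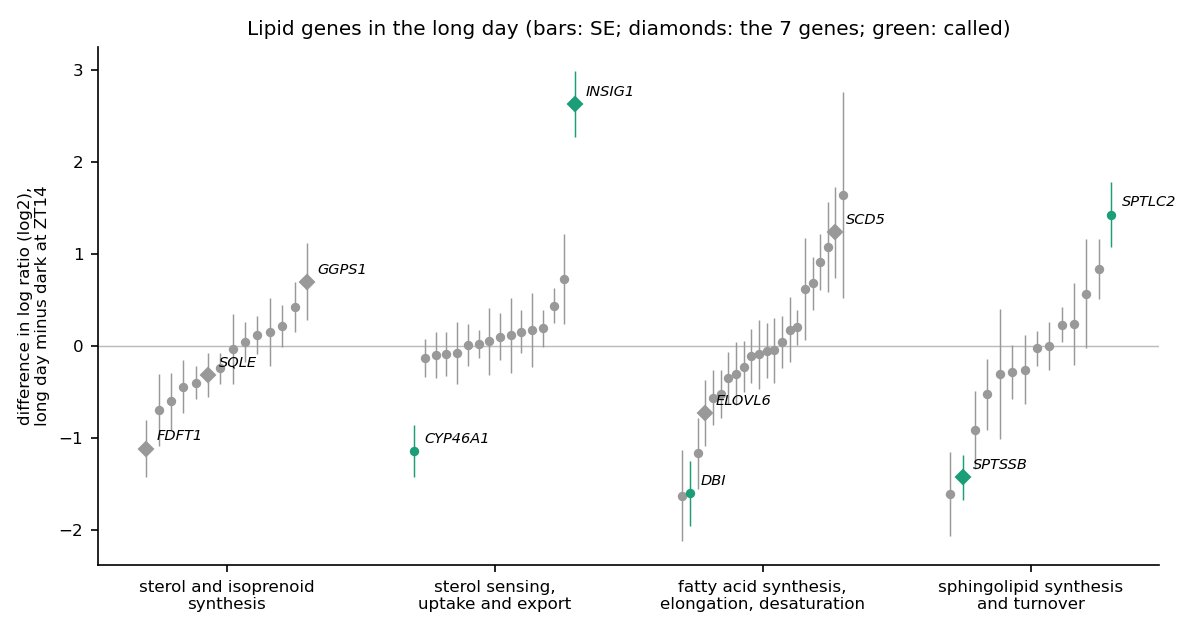
Difference in log ratio (log2) between the long day and its dark controls for the 66 measured lipid genes in 4 lists, each with its SE, ordered by size within a list. Diamonds are the 7 genes and green marks the called genes. The 5 called genes lie at or next to the ends of 3 lists and the sterol and isoprenoid synthesis list has none.

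Neither early-night nor late-night light gave a called gene in these lists, beside 0.00798% and 0% of all genes. Of the 66 genes, 1 and 2 had an unadjusted p under 0.05, beside 4.2% and 4.21% of all genes. The smallest unadjusted p-values after SPTSSB in early-night light were those of SGPL1, which breaks down sphingosine phosphate (-0.39 ± 0.19), and B4GALT5, which makes lactosylceramide (-0.55 ± 0.29). In late-night light they were those of CYP46A1 (0.49 ± 0.20), of MYLIP, which targets the LDL receptor for degradation (-0.30 ± 0.14), and of PGGT1B, a subunit of the enzyme that attaches the geranylgeranyl group made by GGPS1 (0.39 ± 0.19). All adjusted p-values were at least 0.978. For light at ZT14 over both paradigms, INSIG1 and SPTSSB were the called genes and FDFT1 followed (-0.83 ± 0.22, adjusted p = 0.131 in limma).

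Between dark pools at ZT0 and ZT14, 7 of the 66 genes were called higher and 6 lower, 19.7% beside 19% of all genes. Beside the 6 described above, NPC2, which moves cholesterol out of lysosomes, was higher by 1.38 ± 0.35, SPTLC2 by 0.84 ± 0.25 and the desaturase-family gene FADS6 by 1.20 ± 0.39. Lower were PPARG, a lipid-storage transcription factor (-1.58 ± 0.35), the acyl-CoA dehydratases HACD1 (-1.04 ± 0.27) and HACD4 (-1.10 ± 0.27), and the acyl-CoA synthetase ACSL5 (-0.69 ± 0.21). PPARG, HACD4 and NPC2 were called without each single pool in turn, NPC2 at 0.83 to 1.93 and lowest without the paradigm 3 dark pool 3. The calls of SPTLC2, FADS6, HACD1 and ACSL5 were each lost without any of several single pools, and none of these 7 genes was called against paradigm 2 alone. Among light pools, 4 of the 66 were called, 6.06% beside 11.7% of all genes. There HACD4 (-1.11 ± 0.27) and the ceramidase ASAH1 (0.91 ± 0.27) joined SCD5 and ELOVL6. The calls of HACD4 and ASAH1 were likewise lost without several single pools and against early-night light alone. Between the dark groups of paradigms 3 and 2, 12 of the 66 were called, 18.2% beside 20.6% of all genes. Higher in paradigm 3 were PPARG (1.95 ± 0.50), HACD1 (1.67 ± 0.39), HACD4 (1.57 ± 0.38), ACSS2 (1.25 ± 0.28), DHDDS (1.01 ± 0.31), ACSL5 (0.95 ± 0.30) and CYP46A1 (0.86 ± 0.28). Lower were SCD5, INSIG1, NPC2 (-1.73 ± 0.49), SPTLC2 (-1.63 ± 0.35) and ERLIN1 (-0.79 ± 0.21). Of the 10 that are not among the 7 genes, SPTLC2 kept its call without each of the 4 dark pools in turn, at -2.32 to -0.94. ACSS2 and HACD1 lost theirs without the paradigm 2 dark pool 2 (adjusted p = 0.0582 and 0.0518). PPARG, HACD4, NPC2, DHDDS, ACSL5, CYP46A1 and ERLIN1 lost theirs without 2 or 3 of the 4 pools taken singly, and the differences then ran from -2.83 to -0.63 for NPC2, from 0.42 to 1.48 for ACSL5 and from 0.43 to 1.29 for CYP46A1. All 10 calls were lost with all arrays at the same SD, after quantile normalization and with only the 4 arrays compared.

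Markers of pineal and other cells were read in the same fit, first in the long day. Of 7 measured macrophage markers out of 11, TIMD4 was called higher (3.54 ± 0.47), and the mean of the list was 0.40 to 0.49 in the long-day pools, against -0.26 to -0.03 in their dark pools. That mean includes TIMD4, and the median difference over the list was 0.06. Of 8 measured markers of endothelium and pericytes out of 11, KDR was called higher (2.36 ± 0.53) and RGS5 lower (-1.64 ± 0.34), with list means of -0.03 to 0.01 in the long day, against -0.04 in both dark pools. Of 5 markers of adipocytes and liver-type lipid cells out of 9 none was called, with list means of -0.30 to -0.12 in the long day, against 0.03 to 0.45 in darkness. In the pineal photoreceptor list NEUROD1 was called lower (-1.67 ± 0.41), and the list means were -0.84 to -0.69 in the long day, against -0.72 to -0.42 in darkness. Those means include NEUROD1, and the median difference over the list was 0.15, of the opposite sign. No marker was called among 2 measured genes of oligodendrocytes, 4 of astrocytes, 3 of neurons, 6 of lymphocytes, 3 of erythroid cells, and 4 of choroid plexus and ependyma. Between ZT0 and ZT14 darkness, the melatonin-pathway gene TPH1 (-0.51 ± 0.16) and RGS5 (-1.31 ± 0.24) were called lower, and GCH1 (0.87 ± 0.24), AQP1 (0.87 ± 0.26) and APOA4 (0.77 ± 0.17) higher. The median difference was 0.44 over the pineal photoreceptor list and 0.03 over endothelium and pericytes. It was -0.13 over choroid plexus and ependyma and -0.34 over adipocytes and liver-type lipid cells. TPH1, RGS5, AQP1 and APOA4 thus had the sign opposite to their list medians. Between ZT0 and ZT14 light, NEUROD1 (1.70 ± 0.29), CA2 (1.20 ± 0.24) and AQP1 (0.92 ± 0.26) were called higher, and TIMD4 (-2.0, SE 0.33), the globin gene HBBA (-1.44 ± 0.25) and TPH1 (-0.64 ± 0.16) lower. List medians were 0.39 for photoreceptor cells, 0.34 for erythroid cells, 0.10 for choroid plexus and ependyma, and -0.13 for macrophages. HBBA and TPH1 had the sign opposite to their list medians. Between the dark groups of paradigms 3 and 2, where INSIG1 and SCD5 were called, KDR (-2.15 ± 0.53), AQP1 (-1.68 ± 0.37), HBBA (-1.23 ± 0.35), ISL1 (-1.06 ± 0.26) and APOA4 (-0.98 ± 0.24) were called lower. APOB (1.28 ± 0.25), DNAH9 (1.07 ± 0.23) and TEK (0.52 ± 0.17) were called higher there. List medians were 0.16 for endothelium and pericytes, -0.14 for photoreceptor cells and -0.96 for erythroid cells. They were -0.03 for choroid plexus and ependyma and -0.08 for adipocytes and liver-type lipid cells. KDR, DNAH9 and APOB had the sign opposite to their list medians. For light at ZT14 over both paradigms, RGS5 was called lower (-1.29 ± 0.24), with a list median of -0.16. Of all genes, 2.94% were called in the long day, 19% between ZT0 and ZT14 darkness and 11.7% between ZT0 and ZT14 light. Between the dark groups 20.6% of all genes were called, and for light at ZT14 over both paradigms 0.295%. The marker calls are to be read beside these shares. The part of these cells in the differences of the 7 genes was not tested.

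For each of the 6 genes called in any comparison, the 3 genes with the highest Pearson's r over the 16 arrays were listed among 6641 named genes. INSIG1 ran with ANKRD46 (0.913, and 0.885 outside paradigm 3), MRPS31 (0.901, and 0.583) and PDCL (0.888, and 0.605). SPTSSB ran with DIRAS2 (0.849, and 0.730 outside paradigm 3), ENTPD6 (0.838, and 0.522) and QRSL1 (0.83, and 0.701). SCD5 ran with SDC3 (0.978, and 0.861 outside paradigm 3), SLC7A2 (0.970, and 0.814) and DLD (0.967, and 0.640). GGPS1 ran with MMP15 (0.952, and 0.953 outside paradigm 3), the fatty acid desaturase FADS2 (0.920, and 0.964) and CRKL (0.911, and 0.881). SQLE ran with BATF (0.889, and 0.903 outside paradigm 3), the phosphatidate phosphatase LPIN1 (0.838, and 0.827) and PIP5K1A (0.832, and 0.809). ELOVL6 ran with ODR4 (0.930, and 0.857 outside paradigm 3), BTBD17 (0.929, and 0.777) and VWC2 (0.928, and 0.853). These are the highest of many values, from arrays that share a reference.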

How the data were processed

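Pineal RNA of 16 chick pools was amplified, labelled with the green dye and hybridised with a red-labelled mixture of every pool in equal parts, per the labels' protocols, with no dye swap. The authors deposited 1 log ratio per probe and array, which was taken as log2. Which log base, numerator, background correction and normalization were used is not given in the sources used here. Array medians lay between -0.0439 and 0.0518, so no further centring was applied.

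Of 15769 probes, 160 control spots were left out. The other 15609 were named by the platform annotation, which gave a symbol to 9628, and probes of 1 gene were averaged. Probes without a symbol were kept as genes of their own. Genes needed values on at least 2 arrays in every group, which left 12532. All 7 gene IDs had the same symbol in the RefSeq gene table.

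One limma model (version 3.58.1, R 4.3.3) with a mean for each of 6 groups was fitted to all 16 arrays, with 10 residual and 3.33 prior degrees of freedom and Benjamini-Hochberg adjustment over all 12532 genes. It was tested on simulated data with the same SD of a gene on every array. That simulation lacks the wider spread of the paradigm 3 arrays, so it cannot check the assumption of equal spread. Pools are the replicates, and nothing says how birds were assigned to them, so p-values measure only the spread between these pools. Same-numbered light and dark pools were not treated as pairs. In paradigm 1 their deviations from group means correlated at -0.000165 to 0.309, and those of pools with different numbers at -0.420 to 0.340. In paradigm 2 the values were 0.120 and -0.120, which groups of 2 pools force to equal size. These values do not settle whether the pools are paired.

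Other genes were named where they were called or had the 3 smallest p-values within the lipid lists, or were the 3 genes most correlated with a called gene. The 7 genes, the gene lists and the marker lists were chosen with earlier results of these data known. The comparison of late-night light with both ZT14 paradigms and the fit without the 3 arrays of the later number series were added after the data were seen. Alternatives comprised array weights, quantile normalization, a common SD, a trended robust prior, the median of probes, no filter, fewer arrays, each probe alone, other control pools, the replicate number as a block and leaving out each pool.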

Additional observations from a re-analysis of the deposited data

Results flagged for a closer look

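In 26 sets of 4 pools examined, 4 values lay far from the other pools of their set. Chance gives about 1 such value in 20 independent sets. The 26 are not independent, since gene means and their own probes were both counted over the same ZT0 pools. The 4 values therefore cannot be set against that rate. All 4 were in late-night light. SQLE was at -0.263 in pool 4, against 0.33 to 0.44 in the other pools. ELOVL6 was at 0.713 in the same pool as a gene mean and at 0.791 in its probe Pat_14e8, while the gene mean of the other 3 pools was 0.05 to 0.08. Pool 4 is one of the arrays of the later number series. SPTSSB was at 0.729 in pool 1, against 0.34 to 0.39 in the other pools.

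The gene mean of ELOVL6 was lower in both long-day pools than in both of their dark pools and higher in both early-night light pools than in theirs. The long-day difference minus the early-night difference was -1.11 ± 0.50 (SE), with an adjusted p of 0.466 in limma, so the difference between the paradigms was not called.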

How the results depend on the processing

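Over 1304 alternatives to 70 differences of the 7 genes, 88 lost a call, 12 gained one and in 1 a called difference reversed. In a further 26 an uncalled difference changed sign and moved by 1 SE or more. The other 1177 kept their side of the threshold, and either their direction or a value within 1 SE of the reported one. Some uncalled differences among them changed sign, such as SCD5 in early-night light, at 0.37 as reported and -0.07 at its lowest. The reversed value was the SPTSSB difference between ZT0 and ZT14 darkness, at 0.019 after quantile normalization. For 27 called or named differences of other lipid genes, 251 of 399 alternatives kept their side of the threshold and 148 lost a call. The 251 include all alternatives of the differences that were named without being called. Those are SGPL1 and B4GALT5 in early-night light, and CYP46A1, MYLIP and PGGT1B in late-night light. The number of the 7 genes called in the long day was 2 as reported, 0 with array weights, 0 after quantile normalization, 0 with a common SD, 0 with only the arrays compared, 1 with a trended and robust prior, 1 against all 4 ZT14 dark pools, and 2 to 5 without 1 pool (5 without the paradigm 3 dark pool 4). For light at ZT14 over both paradigms it was 2 as reported, 0 under each of those 6 alternatives, and 0 to 4 without 1 pool. Between ZT0 and ZT14 darkness it was 6 as reported, 3 with array weights, 3 after quantile normalization, 2 with a common SD, 1 without the 3 arrays of the later number series, 0 against paradigm 2 alone, and 3 to 6 without 1 pool. Between ZT0 and ZT14 light it was 2 as reported, 1 after quantile normalization, 1 with a common SD, 0 without the 3 arrays of the later number series, 0 against paradigm 2 alone, and 0 to 1 without 1 pool. Between the dark groups at ZT14 it was 2 as reported, 0 after quantile normalization, 0 with a common SD, and 0 with only the arrays compared. Long-day minus early-night effects gave 0 as reported and 0 to 1 without 1 pool, INSIG1 being called without the long-day pool 1 (2.87, adjusted p = 0.0230) and without the paradigm 3 dark pool 4 (2.85, adjusted p = 0.0113). Counts over all genes under these settings follow for the long day only, so for the other comparisons the changes in the 7 genes are not set against all genes here. Over all genes the long day gave 369 calls as reported, 0 with array weights, quantile normalization, a common SD or only the arrays compared, 331 with the trended and robust prior, and 98 against all 4 ZT14 dark pools. The cause of these changes was not tested. With the replicate number as a block, 0 of the 7 genes were called in late-night or early-night light, where the early-night SPTSSB difference was -0.70 ± 0.16 with an adjusted p of 0.392, and not every pool correlated best with its own number. With 2 pools in each ZT14 group, the number of arrays limits the precision.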
